A study of Mus musculus with 24 samples.

Results

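The Rab family is the largest branch of the Ras-like small GTPases, and its mRNAs were followed here in mouse macrophages treated with lipopolysaccharide (LPS) or depleted of the co-repressors CtBP1 and CtBP2. Members were taken by symbol, Rab followed by a number and at most 1 letter from a to d, which excludes Rab effectors and regulators. This gave 59 genes, of 22996 genes in the table of bone marrow-derived macrophages (BMDMs) and 54380 in that of the J774.1 line. All 59 are in the J774.1 table and 55 are in both. The 37 genes that averaged 1 TPM or more in each of 8 groups are reported (TPM counts transcripts, corrected for length and scaled to a fixed total per library), and the other 22 are accounted for below.

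There were 24 libraries of polyadenylated RNA in 8 groups of 3. BMDMs, macrophages grown in L929-conditioned medium from marrow of male C57BL6/N mice aged 6 to 12 weeks, carried control siRNA, Ctbp1 siRNA or Ctbp2 siRNA and received vehicle (PBS) or LPS, a component of the bacterial cell wall (100 ng/ml, 4 h). The J774.1 line, macrophages from a female BALB/c mouse, was wildtype or Ctbp1/2 double knockout, and both received the same LPS dose, so the line has no vehicle group. How the knockout was made, whether it is 1 clone, and whether marrow was pooled are not given in the sources used here. The series asks how Ctbp1 and Ctbp2 affect inflammatory gene expression.

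Rab proteins switch between a GTP-bound form on membranes and a GDP-bound form that GDI proteins hold in the cytosol. Guanine nucleotide exchange factors (GEFs) turn them on, GTPase-activating proteins (GAPs) turn them off, and the active form recruits effectors such as tethers, motors and sorting adaptors. In macrophages the family is known for phagosome maturation, for the traffic of Toll-like receptors to and from the surface and endosomes, and for cytokine secretion.

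Genes at 1 TPM or more numbered 11548 to 12259 per BMDM library and 11581 to 11823 per J774.1 library. TPM keeps no sequencing depth, so counting error per library is unknown. Libraries of 1 group correlated at r = 0.984 to 0.989 in BMDMs and 0.985 to 0.988 in J774.1 cells, over log2 values of all genes. Of 8 macrophage markers, 8 reached 1 TPM in BMDMs and 6 in J774.1 cells, where C1qa was listed at 0 in both groups and Mertk at or near 0. Among markers of other cells, 9 neutrophil genes summed to 58.5 to 113 TPM in control vehicle and 74.4 to 120 TPM in control LPS libraries. In J774.1 cells they summed to under 1 TPM. Most of the BMDM sum was S100a8 and S100a9. Over BMDM groups the means of Ltf, Camp and Retnlg reached 5.84, 4.64 and 1.05 TPM. Those of Ly6g, Mpo, Elane and Cxcr2 were at most 0.299. With LPS the dendritic cell list, nearly all of it Itgax, which macrophages express too, went from 122.6 to 124 TPM in control vehicle libraries to 146.1 to 147 TPM, and the stromal list, nearly all of it Pdgfrb, from 0.0633 to 0.110 TPM to 4.11 to 7.60 TPM. The part of other cells in the results was not tested. In the siRNA targets, Ctbp1 kept 41.5% of its control TPM with Ctbp1 siRNA in both treatments, and Ctbp2 kept 34.5% in vehicle and 31.7% in LPS with Ctbp2 siRNA. In the line labelled a double knockout, Ctbp1 was at 12.4% and Ctbp2 at 80.7% of wildtype TPM. A whole-gene TPM does not test an edit that leaves the transcript in place, and no protein was measured, so the loss of Ctbp2 was not checked. The group is called the double knockout below after its label.

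Late endosomal and recycling genes led the family in control BMDMs with vehicle. The sums in this paragraph are over all genes matched by symbol, reported or not. They were 4095 ± 37.8 TPM (SD, n = 3) in control BMDMs with vehicle and 3837 ± 31.5 TPM with LPS. In J774.1 cells the sums were 2109 ± 23.5 TPM in wildtype and 2213 ± 50.5 TPM in the double knockout, from a table normalized separately. In control vehicle BMDMs 15 of the 37 reported members had at least 100 TPM, 21 had 10 to 100 and 1 (Rab23, a negative regulator of Hedgehog signalling) was below 10. The top 7 genes made up at least 0.5 of the family's TPM in every BMDM group, and the top 6 did so in both J774.1 groups.

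Rab7, which directs late endosomes and phagosomes to lysosomes, was the highest member in each BMDM group, at 582, 634 and 596 TPM in control vehicle libraries and 540, 530 and 551 with LPS. Rab11a, the Rab of the slow recycling endosome, came next at 363, 335 and 378 TPM in vehicle and 392, 401 and 400 with LPS. These values did not overlap between treatments for either gene. Rab5c, which drives early endosome fusion, had 309, 305 and 312 TPM in vehicle and 283, 284 and 311 with LPS. Rab1a, which acts between the endoplasmic reticulum (ER) and the Golgi, had 201, 208 and 203 TPM in vehicle and 204, 199 and 194 with LPS. For Rab5c and Rab1a the groups overlapped. Rab14, a Rab of endosome-to-Golgi and recycling traffic, completed the top 5 by BMDM mean, at 189, 196 and 196 TPM in vehicle and 175, 172 and 179 with LPS. In J774.1 wildtype cells Rab11a was highest, at 292 ± 8.76 TPM (n = 3), above Rab7 at 194 ± 1.006.

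**Figure D1:**
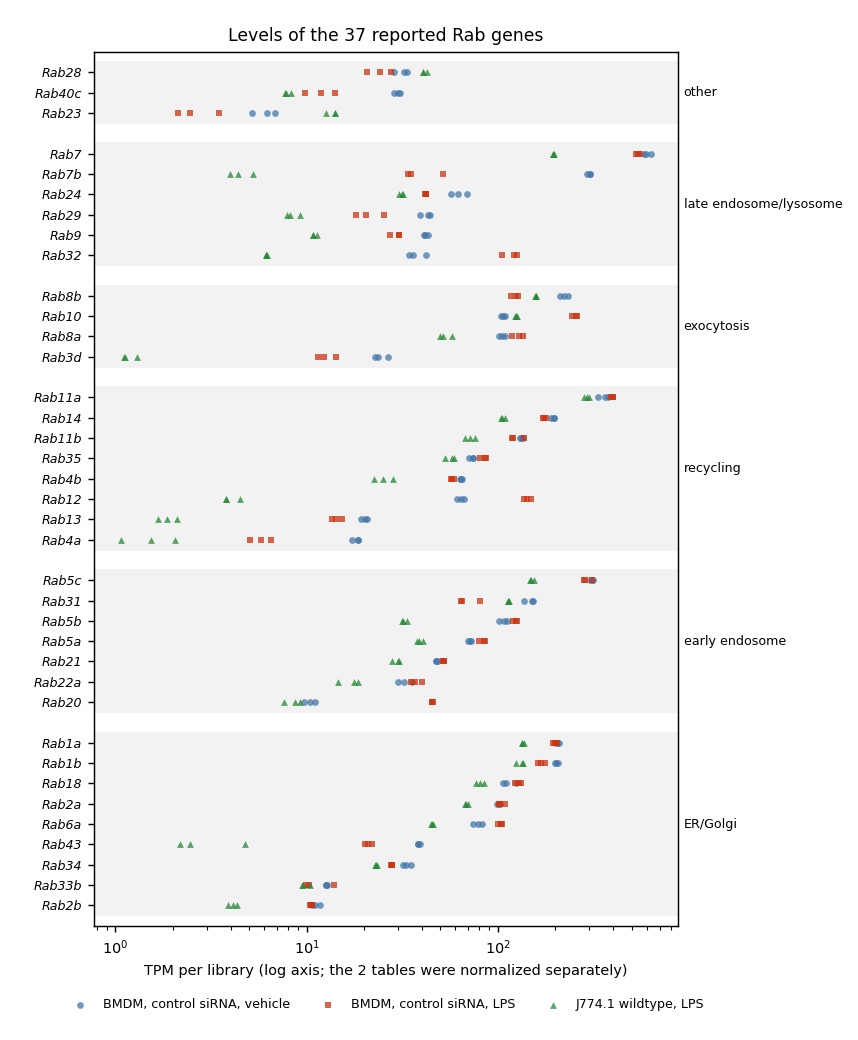
TPM of the 37 reported Rab genes on a log axis, grouped by role, with 1 point per library for control siRNA BMDMs in vehicle (circles) or LPS (squares) and for J774.1 wildtype cells in LPS (triangles). Rab7 is the highest member in BMDMs and Rab11a in J774.1 cells, and Rab12, Rab43, Rab7b, Rab32 and Rab3d lie far lower in J774.1 cells than in BMDMs with LPS.

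Several members had very unequal levels in the 2 kinds of macrophage under LPS. The tables were normalized separately, so levels are given side by side with no test. Rab12, a recycling Rab that sends transferrin receptor to lysosomes, had 142 ± 5.75 TPM (n = 3) in control BMDMs and 4.02 ± 0.396 in J774.1 wildtype cells. Rab32, a Rab of lysosome-related organelles and mitochondria, had 118 ± 11.04 and 6.16 ± 0.0554. Rab43 of the ER and Golgi had 21.0 ± 0.957 and 3.12 ± 1.41, and Rab3d of secretory granules 12.7 ± 1.37 and 1.18 ± 0.102. Rab23 lay the other way, at 2.68 ± 0.704 in BMDMs and 13.5 ± 0.805 in J774.1 cells. Rab8b, which carries vesicles towards the plasma membrane, was of like size in both, at 123 ± 5.23 and 157 ± 1.76.

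Some reads fit more than 1 annotated gene, which matters because the kit did not mark strand. In GENCODE M21 transcripts of GRCm38, the share of a member's 31-base words that another gene also contains, on either strand, had a median of 2.32%. It passed 10% in 12 members. The highest shares were 74.8% for Rab43 (with Gm45140), 62.7% for Rab4b, 59.6% for Rab2b, 54.4% for Rab24 (with Prelid1) and 24.0% for Rab20 (with E230013L22Rik), so these values are uncertain. No member shared more than 1.89% with another of the 59 Rab genes, which include no pseudogene. With Rab pseudogenes Rab7 shared 14.1% (Rab7-ps1), Rab9 12.0% (Rab9b-ps1) and Rab11b 9.56% (Rab11b-ps2).

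LPS changed most of the family, in both directions. In control siRNA BMDMs 13 of 37 members rose and 18 fell at an adjusted p under 0.05 (limma), while LPS called 72.2% of all genes tested, 18.6% higher and 53.6% lower. In bulk RNA, fewer cells that express a gene and less RNA per cell cannot be told apart. Changes of at least 2-fold were called in 8 members, a count given without its share over all genes. Rab20, Rab32, Rab10 and Rab12 rose, and Rab7b, Rab4a, Rab40c and Rab31 fell. The median log2 fold change was -0.14 over members and -0.29 over all genes tested, so TPM as deposited sat lower for most genes with LPS. After median-of-ratios scaling the all-gene median was -0.10, the call split over all genes moved from 2258 higher and 6514 lower to 3399 and 4712, and the members' split became 17 higher and 12 lower.

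Rab20, a Rab of phagosomes and early endosomes, rose most. Its TPM was 11.1, 10.4 and 9.70 in control vehicle libraries and 45.0, 45.7 and 45.4 with LPS, with no overlap. The log2 fold change was 2.03 ± 0.07 (SE; limma adjusted p = 1.35e-13), and 2.22 after scaling. Rab32 went from 34.1, 41.9 and 36.1 TPM to 126, 122 and 105, a log2 fold change of 1.63 ± 0.09 (limma adjusted p = 4.79e-11). Its lowest LPS library was far above its highest vehicle library. Rab10, an exocytic Rab known to carry TLR4 to the macrophage surface, had 104, 109 and 106 TPM in vehicle and 260, 256 and 245 with LPS. Its log2 fold change was 1.25 ± 0.06. Rab12 went from 66.2, 64.1 and 61.5 TPM to 142, 148 and 137, a log2 fold change of 1.14 ± 0.04, again with separate groups. By level among the 37 members, Rab20 stood at rank 36 in control vehicle and 22 with LPS, Rab10 at 13 and 4, and Rab12 at 20 and 8.

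The sequences upstream of the 4 members that rose 2-fold or more, and of Rab40c, which fell as much, are shown as examples. Each is the RefSeq window of 250 bases before the annotated start (build GRCm38.p6, all on the minus strand, 5′ to 3′). The positions are chr8:11478641-11478890 for Rab20, chr10:10558208-10558457 for Rab32, chr12:3309970-3310219 for Rab10, chr17:66519671-66519920 for Rab12 and chr17:25919715-25919964 for Rab40c. The deposited BMDM tables use mm39, and no coordinate was carried between builds. Rab7b and Rab4a, which fell further than Rab40c, have no window in the table, and the window of Rab31 is not shown. Capitals mark GC boxes (GGGCGG, either strand) and, in Rab20, an E-box (CACGTG).
Rab20: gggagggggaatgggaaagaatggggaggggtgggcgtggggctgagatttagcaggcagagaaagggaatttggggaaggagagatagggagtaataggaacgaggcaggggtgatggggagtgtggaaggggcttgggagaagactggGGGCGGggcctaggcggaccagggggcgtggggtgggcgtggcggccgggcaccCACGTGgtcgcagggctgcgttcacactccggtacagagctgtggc
Rab32: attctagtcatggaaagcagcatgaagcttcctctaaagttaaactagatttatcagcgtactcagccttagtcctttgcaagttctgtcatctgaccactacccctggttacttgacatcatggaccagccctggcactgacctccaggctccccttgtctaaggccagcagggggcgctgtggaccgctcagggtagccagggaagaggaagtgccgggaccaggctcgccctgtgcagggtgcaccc
Rab10: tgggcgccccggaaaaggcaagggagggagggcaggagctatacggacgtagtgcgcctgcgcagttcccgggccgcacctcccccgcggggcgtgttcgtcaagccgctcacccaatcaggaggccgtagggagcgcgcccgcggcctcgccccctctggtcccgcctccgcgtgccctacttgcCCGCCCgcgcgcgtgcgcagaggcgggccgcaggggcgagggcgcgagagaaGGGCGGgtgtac
Rab12: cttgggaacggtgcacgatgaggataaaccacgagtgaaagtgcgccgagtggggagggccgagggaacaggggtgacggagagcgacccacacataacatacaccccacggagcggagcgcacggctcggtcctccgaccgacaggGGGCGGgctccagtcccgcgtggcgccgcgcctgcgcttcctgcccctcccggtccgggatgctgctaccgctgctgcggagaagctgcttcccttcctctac
Rab40c: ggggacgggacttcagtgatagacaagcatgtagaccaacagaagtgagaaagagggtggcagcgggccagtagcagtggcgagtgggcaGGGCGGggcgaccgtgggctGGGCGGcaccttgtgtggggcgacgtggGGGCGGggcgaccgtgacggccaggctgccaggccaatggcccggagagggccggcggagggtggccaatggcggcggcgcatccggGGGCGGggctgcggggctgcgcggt
The GC box was found in 1 copy in Rab12 and Rab20, 2 copies in Rab10 and 4 in Rab40c, and not in Rab32. The E-box of Rab20 covers bases -46 to -41 from the start. A window was found for 33 of the 37 members, 40 windows in all. GC boxes were in 72.5% of these and 32.7% of all 32851 windows, beside a median GC content of 63.0% against 52.4%. The kappaB motif, by name, was in none of the 4 risers' windows, and in 5.0% of members' and 7.25% of all windows. AP-1 (TGANTCA) was in 2.5% and 6.75%, CRE (TGACGTCA) in 2.5% and 1.55%, ISRE, by name, in 0% and 2.98%, and the E-box in 10.0% and 6.02%. A match is a description of letters, and both strands were searched for each motif. No 2 of these motifs overlapped in the windows printed.

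Rab7b fell most. It is a late endosomal and Golgi Rab known to lower TLR4 and TLR9 signalling in macrophages. Its TPM was 304, 304 and 294 in control vehicle libraries and 33.9, 35.0 and 51.7 with LPS. It was the 4th highest member in vehicle and stood at rank 24 with LPS. The log2 fold change was -2.90 ± 0.11 (limma adjusted p = 1.25e-12). Replicate 4 of the control LPS group was the least changed library here, and without it the value was -3.09. Rab7b therefore moved far more than Rab7, whose log2 fold change was -0.16 ± 0.03 and turned to 0.05 after scaling. Rab7 made up 66.7% ± 0.973 of the Rab7 and Rab7b sum in vehicle and 93.1% ± 1.47 with LPS (n = 3).

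The other large falls were in recycling, ubiquitin ligase and early endosome members. Rab4a, the Rab of fast recycling, went from 18.6, 18.5 and 17.4 TPM to 5.05, 5.81 and 6.51, a log2 fold change of -1.50 ± 0.11. Its paralog Rab4b had a log2 fold change of -0.15 ± 0.04, which was 0.06 after scaling. Rab40c, the SOCS-box member that joins a ubiquitin ligase, went from 30.6, 28.6 and 30.0 TPM to 9.86, 11.9 and 14.1, a log2 fold change of -1.26 ± 0.10. Rab31, which acts between the trans-Golgi and endosomes, went from 137, 150 and 152 TPM to 65.1, 64.0 and 80.9, a log2 fold change of -1.06 ± 0.07. In each of these genes no LPS library reached the lowest vehicle library. After scaling, the values were -1.31 for Rab4a, -1.06 for Rab40c and -0.85 for Rab31.

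**Figure D2:**
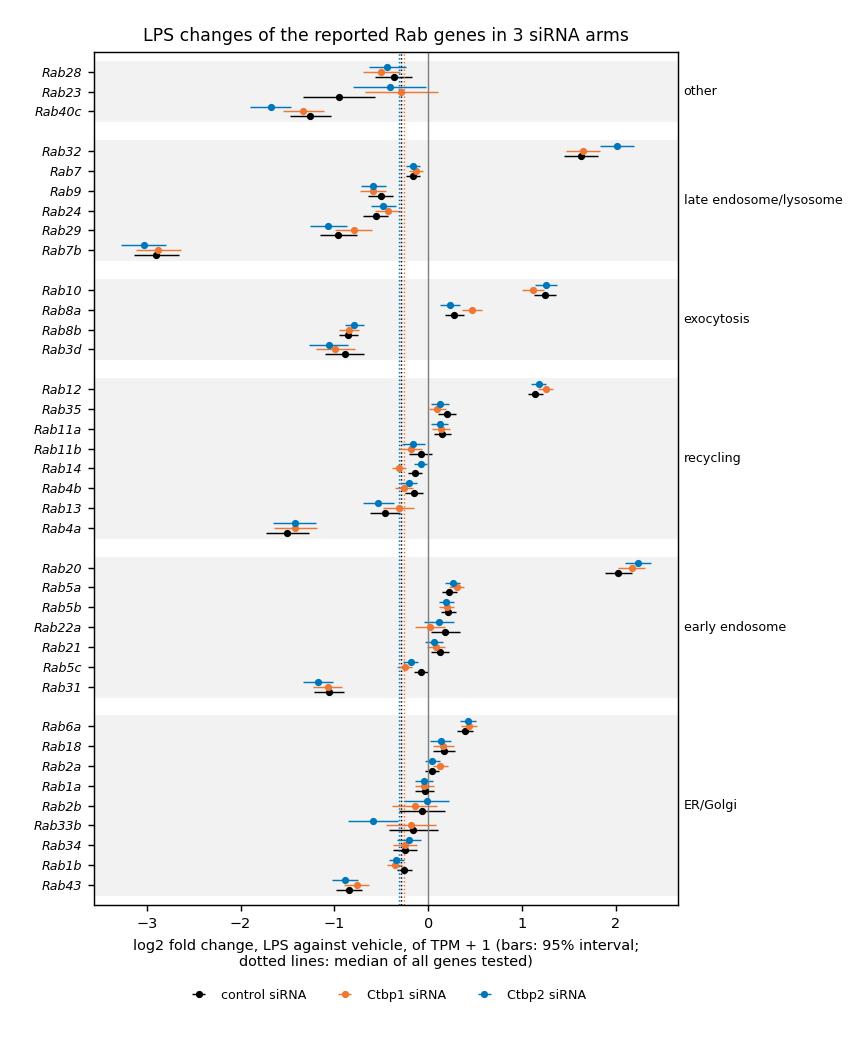
Log2 fold change of LPS against vehicle for each reported Rab gene, grouped by role, in control (black), Ctbp1 (orange) and Ctbp2 (blue) siRNA BMDMs, with 95% intervals; dotted lines give each arm's median over all genes tested. Rab20, Rab32, Rab10 and Rab12 stand apart on the right and Rab7b on the left in each arm.

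By role, 5 of 7 early endosome and phagosome members rose in control cells (Rab20, Rab5a, Rab5b, Rab21, Rab22a) and 1 fell (Rab31), beside 18.6% of all genes higher and 53.6% lower. In both the Ctbp1 and Ctbp2 siRNA arms 3 of them rose and 2 fell. The calls of Rab21 and Rab22a in control cells were lost under 4 and 6 of 25 alternatives, and Rab5c was not called (-0.08) but was called higher after scaling (0.13). Of 6 late endosome and lysosome members, 5 fell and only Rab32 rose; besides Rab7b and Rab7 the falls were Rab29, which recruits the kinase LRRK2, at -0.96 ± 0.09, Rab24 at -0.56 ± 0.06 and Rab9 at -0.51 ± 0.06. All matched genes of this role, reported or not, summed to 1093 ± 24.1 TPM in vehicle and 792 ± 12.96 with LPS. Most of that fall was Rab7b, with means of 301 and 40.2 TPM. Rab7 had 604 and 540 TPM, and Rab32, which rose, 37.4 and 118. Of 8 recycling members 3 rose and 4 fell, and of 9 ER and Golgi members 2 rose and 3 fell. The 3 members outside the listed roles, Rab23, Rab28 and Rab40c, all fell, and the exocytic members follow below. Rab6a, which acts at the Golgi, had the largest rise of its role at 0.39 ± 0.04, and Rab43 the largest fall at -0.85 ± 0.06. Scaling changed the calls to 6 higher and 1 lower for early endosome and 1 and 4 for late endosome members. It gave 4 and 2 for recycling and 4 and 1 for ER and Golgi members. For Rab23, Rab28 and Rab40c it gave 0 and 2, with Rab28 lost.

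The exocytic paralogs Rab8a and Rab8b moved in opposite directions. Rab8a, known to shape Toll-like receptor signalling in macrophages, had 105, 109 and 101 TPM in vehicle and 130, 136 and 119 with LPS, a log2 fold change of 0.28 ± 0.05. Rab8b had 212, 232 and 223 TPM in vehicle and 124, 127 and 117 with LPS, a log2 fold change of -0.85 ± 0.05. Both directions stayed after scaling, at 0.49 and -0.64. Rab8a was therefore 32.1% ± 0.953 of the pair's TPM in vehicle and 51.0% ± 0.659 with LPS (n = 3), with no overlap. In the same role Rab10 rose, and Rab3d fell at -0.89 ± 0.10.

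The 3 siRNA arms share no library, so each is a separate measurement of the LPS change, although 1 model estimated their spread. With Ctbp1 siRNA 11 members rose and 19 fell, against 70.5% of all genes called (19.4% higher and 51.1% lower). With Ctbp2 siRNA 11 rose and 20 fell, against 73.9% (18.6% and 55.3%). After scaling the splits were 15 and 13, and 16 and 14. In all 3 arms 10 members were called higher and 17 lower, and with scaling 15 and 10. In each direction 10 held under both. The counts over 3 arms and the scaled splits are given without a share over all genes, which was not computed for calls in all 3 arms. Rab20 had log2 fold changes of 2.03, 2.17 and 2.24 in the control, Ctbp1 and Ctbp2 arms, and Rab7b -2.90, -2.88 and -3.03. Rab23 was less alike: it had 6.20, 5.16 and 6.83 TPM in control vehicle and 2.47, 2.11 and 3.47 in control LPS libraries, a log2 fold change of -0.95 ± 0.18, but -0.29 and -0.41 in the Ctbp1 and Ctbp2 arms, where it was not called, and the differences between arms were not called either. Over the 9 LPS and 9 vehicle BMDM libraries, 8 members were higher without overlap and 15 lower, where 14.7% of all genes tested were higher and 40.5% lower in that way.

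**Figure D3:**
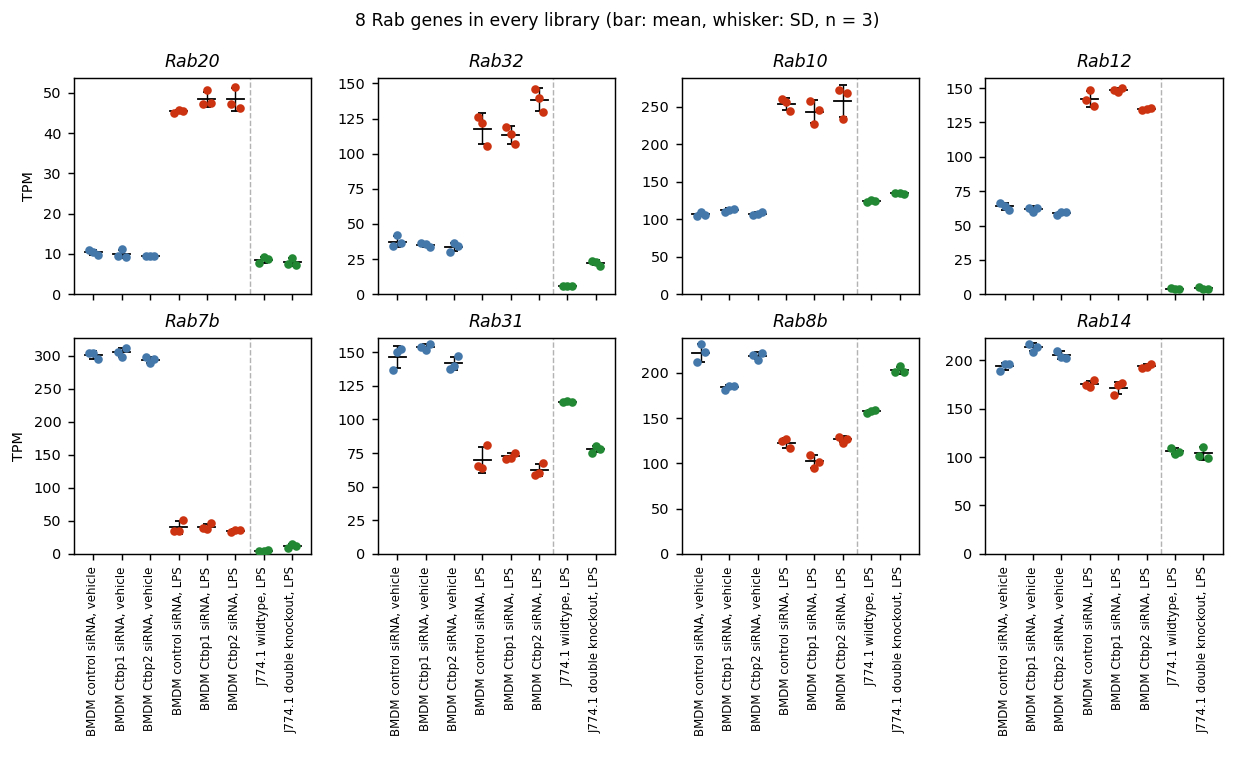
TPM of 8 Rab genes in each library of the 8 groups, with mean and SD (n = 3), for BMDMs in vehicle (blue) or LPS (red) and J774.1 cells (green, after the dashed line, normalized separately). Rab20, Rab32, Rab10 and Rab12 are high in all 9 LPS libraries of BMDMs, Rab7b and Rab31 are low there, and Rab32 and Rab8b are higher in double-knockout than in wildtype J774.1 cells.

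Neither siRNA moved the family by much. With Ctbp1 siRNA in vehicle 1 of 37 members was called, and it was lower, against 0.107% of all genes tested (0.00823% higher and 0.0988% lower). With LPS 0 were called, against 0.0576% (all lower), with 3 at an unadjusted p under 0.05 (limma). With Ctbp2 siRNA in vehicle 0 were called, against 0.568% (0.272% higher and 0.296% lower), with 7 at an unadjusted p under 0.05. With LPS 1 was called, and it was higher, against 1.94% (0.519% higher and 1.42% lower). Log2 fold changes of members ran from -0.28 to 0.15 and -0.26 to 0.39 for Ctbp1 siRNA in vehicle and LPS, and from -0.44 to 0.13 and -0.35 to 0.23 for Ctbp2 siRNA. The Ctbp1 and Ctbp2 siRNA comparisons share their control libraries.

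Rab8b was the member called with Ctbp1 siRNA. In vehicle it had 181, 185 and 185 TPM with Ctbp1 siRNA against 212, 232 and 223 with control siRNA. With LPS it had 110, 95.1 and 102 TPM against 124, 127 and 117. The groups did not overlap in either treatment. The log2 fold change was -0.27 ± 0.05 in vehicle (limma adjusted p = 0.0468) and -0.26 ± 0.05 with LPS (limma adjusted p = 0.0689). The vehicle call was lost under 19 of 25 alternatives, 14 of them with 1 of the 18 libraries left out, over an adjusted p of 0.0194 to 0.191, while the log2 fold change stayed between -0.30 and -0.24. In the authors' deposited table the adjusted p was 0.0169 in vehicle and 0.0213 with LPS, both for a fall. With Ctbp2 siRNA, Rab8b had log2 fold changes of -0.02 ± 0.05 and 0.05 ± 0.05.

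Rab14 was the member called with Ctbp2 siRNA, in LPS. It had 192, 193 and 197 TPM with Ctbp2 siRNA and 175, 172 and 179 with control siRNA, with no overlap. The log2 fold change was 0.14 ± 0.03 (limma adjusted p = 0.0392), and 0.20 after scaling. The call was lost under 14 of 25 alternatives, 12 of them with 1 library left out, over an adjusted p of 0.00388 to 0.330. In vehicle Rab14 had 210, 203 and 202 TPM with Ctbp2 siRNA and 217, 209 and 214 with Ctbp1 siRNA, each above all 3 control libraries at 189, 196 and 196, and neither difference was called. In the authors' deposited table Rab14 was higher in all of these: Ctbp2 siRNA in LPS (adjusted p = 2.45e-08) and in vehicle (0.00752) and Ctbp1 siRNA in vehicle (4.03e-04). That table also has Rab5c higher with each siRNA in vehicle, which limma did not call.

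The test of whether siRNA changed the LPS response called 0 members for Ctbp1 siRNA (0% of all genes tested) and 0 for Ctbp2 siRNA (0.0329%), with 4 members at an unadjusted p under 0.05 in each (limma). The smallest adjusted p among members was 0.403 for Ctbp1 siRNA, that of Rab14, and 0.387 for Ctbp2 siRNA. The latter was that of Rab32, whose LPS change was 1.63 in control and 2.01 in Ctbp2 siRNA cells. Its difference was 0.38 with a 95% interval of 0.13 to 0.64. Rab32 had 146, 140 and 129 TPM with Ctbp2 siRNA and LPS, above all control LPS libraries, and that comparison was not called either (log2 fold change 0.23 ± 0.09, limma adjusted p = 0.170).

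**Figure D4:**
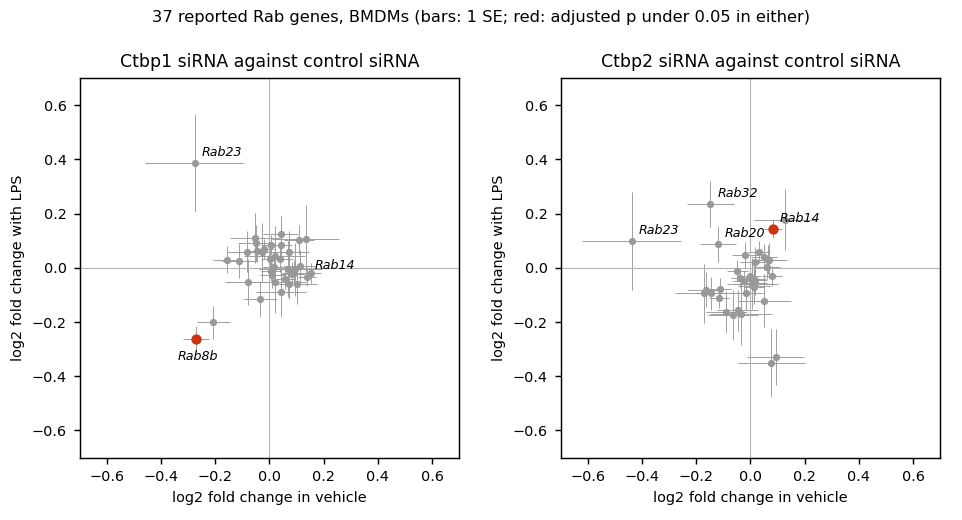
Log2 fold change of each reported Rab gene with Ctbp1 (left) or Ctbp2 (right) siRNA against control siRNA, in vehicle (x axis) and with LPS (y axis), with 1 SE as bars and members called in either in red. Most members lie within 0.2 of 0 on both axes; Rab8b lies at -0.27 and -0.26 with Ctbp1 siRNA.

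In J774.1 cells with LPS, 9 members were higher and 3 lower in the double knockout than in wildtype. Over all genes tested it called 36.1%, 23% higher and 13.2% lower, and the median log2 fold change was 0.05 over all genes and 0.05 over members. Rab32 changed most, at 6.21, 6.10 and 6.15 TPM in wildtype libraries and 23.5, 23.0 and 20.2 in the double knockout. Its log2 fold change was 1.70 ± 0.07 (limma adjusted p = 2.15e-06), and 1.77 in the authors' deposited table. All 3 knockout libraries were still below every vehicle BMDM library, on separately normalized scales. Rab7b had 3.98, 4.39 and 5.24 TPM in wildtype and 8.91, 14.4 and 12.4 in the double knockout, a log2 fold change of 1.20 ± 0.17 (limma adjusted p = 0.00109). The groups did not overlap for either gene. Markers moved too: the macrophage list summed to 1403 to 1425 TPM in wildtype and 1526 to 1637 in the double knockout, as 5 of its 6 markers at 1 TPM or more were higher in each knockout library than in any wildtype one. Adgre1, which encodes the macrophage surface protein F4/80, went the other way, at 225 ± 5.24 TPM (n = 3) in wildtype and 15.8 ± 1.39 in the double knockout. The dendritic cell list summed to 1.00 to 1.89 TPM in wildtype and 6.00 to 8.80 in the double knockout, mostly Itgax. The part of these markers in the Rab values was not tested.

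Both Rab8 paralogs were higher in the double knockout. Rab8b had 156, 158 and 159 TPM in wildtype and 200.5, 207 and 201 in the double knockout, a log2 fold change of 0.36 ± 0.03 (limma adjusted p = 4.38e-05). This is opposite in sign to its change with Ctbp1 siRNA in BMDMs, in other cells and another comparison, and that difference was not tested. Rab8a had 49.5, 57.3 and 51.4 TPM in wildtype and 60.2, 78.8 and 75.5 in the double knockout. Its log2 fold change was 0.43 ± 0.10 (limma adjusted p = 0.0174), a call lost when either of 2 knockout or 2 wildtype libraries was left out (replicates 2 and 3, and 1 and 3). Rab10, of the same role, had 123, 125 and 125 TPM in wildtype and 135, 135 and 133 in the double knockout, a log2 fold change of 0.11 ± 0.03. It was not called after scaling or without wildtype replicate 1, where its adjusted p reached 0.0523.

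Smaller rises were found in early endosome and Golgi members. Rab5c had 147, 150 and 154 TPM in wildtype and 172, 172 and 167 in the double knockout, a log2 fold change of 0.18 ± 0.03. Rab5b had 33.6, 31.4 and 31.8 TPM against 38.1, 36.8 and 37.5, at 0.21 ± 0.05. Rab6a had 45.6, 44.6 and 45.1 TPM against 54.8, 53.9 and 51.7, at 0.24 ± 0.04. In these 3 genes every knockout library was above every wildtype one. Rab2b, a Golgi Rab, had 4.13, 3.87 and 4.34 TPM against 5.49, 5.93 and 4.71, at 0.32 ± 0.10, and its call (limma adjusted p = 0.0466) was lost under 8 of 11 alternatives.

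The 3 members that fell were Rab34, Rab31 and Rab23. Rab34, which positions lysosomes and acts on phagosomes, had 22.8, 23.4 and 23.1 TPM in wildtype and 17.0, 17.0 and 12.8 in the double knockout, a log2 fold change of -0.55 ± 0.10 (limma adjusted p = 0.00527). Rab31 had 113, 114 and 113 TPM against 75.3, 80.1 and 78.4, at -0.53 ± 0.03 (limma adjusted p = 1.6e-05). Rab23 had 12.6, 14.01 and 14.02 TPM against 11.05, 10.3 and 10.9, at -0.31 ± 0.07. None of these groups overlapped. Limma called no recycling member. The authors' deposited table has Rab11b, Rab14 and Rab35 of that role lower (DESeq2 adjusted p = 0.00256, 0.0141 and 0.00175). It has no recycling member called higher. Rab23 was not called there (DESeq2 adjusted p = 0.116), nor were Rab10 and Rab2b. Rab20, the largest riser with LPS in BMDMs, had 7.65, 9.24 and 8.71 TPM in wildtype and 7.58, 9.11 and 7.37 in the double knockout. Its log2 fold change was -0.08 ± 0.10. After scaling 7 members were higher and 4 lower, with Rab2b and Rab10 lost and Rab1a called lower at -0.09. That scaled split is given without a share over all genes.

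**Figure D5:**
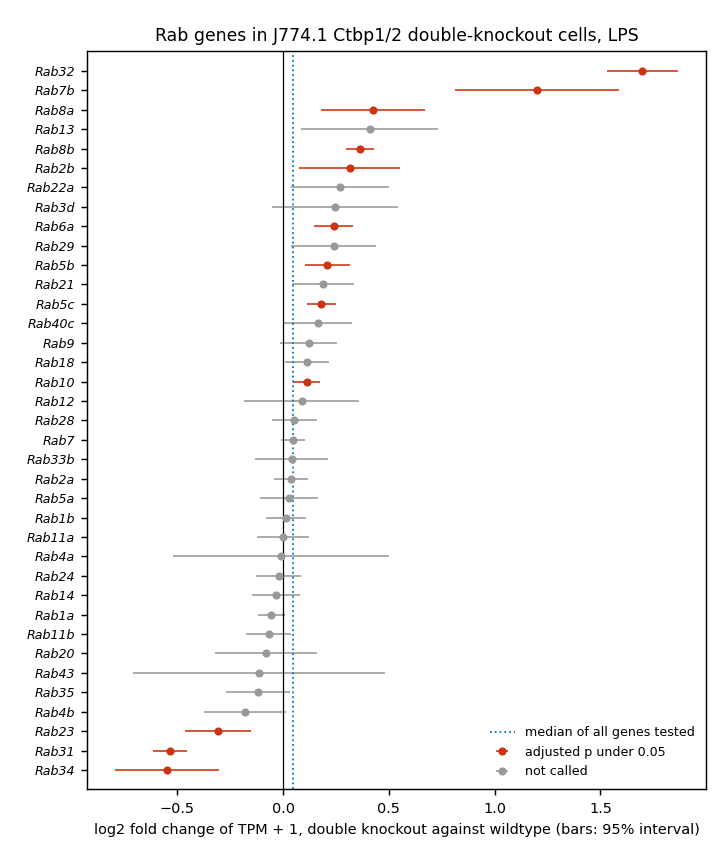
Log2 fold change with 95% interval of each reported Rab gene in J774.1 double-knockout against wildtype cells, all with LPS, sorted by size, with called members in red and the median of all genes tested as a dotted line. Rab32 and Rab7b lie above 1, and Rab34 and Rab31 are the lowest.

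The authors' deposited table gives similar counts for the members in the knockout, 8 higher and 5 lower, of which limma also called 9, all with the same sign. With LPS in control siRNA cells the authors' deposited table has 20 members higher and 10 lower. Limma also called 26 of these, 23 with the same sign, beside the shift between the 2 scalings given above. Its log2 fold changes are 2.46 for Rab20, 1.99 for Rab32, 1.59 for Rab10, 1.49 for Rab12 and -2.58 for Rab7b. The share of all genes that the authors called was not computed for either comparison, so their member counts stand without one.

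Genes that load, switch and read Rab proteins were mostly called lower with LPS, as were all genes tested (18.6% higher and 53.6% lower), and the GEF and GAP lists lay near that share. In control siRNA BMDMs, of 32 GEFs tested 7 rose and 18 fell, of 33 GAPs 8 rose and 20 fell, and of 42 effectors 10 rose and 31 fell. Of the 12 genes of the HOPS and CORVET tethers and the retromer coat, which act with Rab7 and Rab5, 0 rose and 11 fell, and of 7 escort, prenylation and GDI genes 0 rose and 4 fell. Of 5 genes of Rab phosphorylation, 1 rose and 3 fell. The list medians ran from -0.18 for escort genes to -0.50 for effectors, beside -0.29 over all genes. After scaling the counts were 10 and 14 for GEFs, 10 and 15 for GAPs, 11 and 24 for effectors, 1 and 7 for tethers and retromer, 1 and 2 for escort genes and 1 and 2 for phosphorylation.

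The largest rise among regulators and effectors was that of Rab11fip1, a Rab11 effector of recycling endosomes, from 6.32 ± 0.573 to 82.2 ± 17.1 TPM (n = 3), a log2 fold change of 3.49 ± 0.12. Appl1, a Rab5 effector on early endosomes, rose from 20.2 ± 1.57 to 68.0 ± 7.48 TPM at 1.70 ± 0.08, while its paralog Appl2 fell from 84.1 ± 6.55 to 20.0 ± 3.26 TPM at -2.03 ± 0.13. The Rab5 GEF Rin3 rose at 1.52 ± 0.07 and Micall2, an effector of Rab8 and Rab13, at 1.39 ± 0.06. The largest falls were in Mical1, a Rab effector that oxidises actin, at -3.00 ± 0.11, Rab3il1, a GEF of Rab8, at -2.88 ± 0.06, and Tbc1d2, a GAP of Rab7, at -2.56 ± 0.10. Plekhm1, which joins Rab7 to HOPS, fell at -2.03 ± 0.08, and the HOPS subunit Vps39 fell from 51.8 ± 3.14 to 22.8 ± 2.33 TPM at -1.15 ± 0.07. Gdi2, the highest of the GDI genes, fell from 625 ± 16.0 to 482 ± 27.3 TPM at -0.37 ± 0.04.

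In the double knockout more of these genes rose than fell, as over all genes tested (23% higher and 13.2% lower). Of 35 GEFs tested 10 rose and 1 fell, of 30 GAPs 8 rose and 2 fell, and of 38 effectors 11 rose and 2 fell, with list medians of 0.12, 0.14 and 0.15 beside 0.05 over all genes. After scaling these became 10 and 3, 7 and 3, and 10 and 3. The scaled counts in this paragraph stand without a share over all genes. Of 12 tether and retromer genes 3 rose and 0 fell, of 7 escort genes 1 rose and 1 fell, and of 5 phosphorylation genes 1 rose and 0 fell, which became 2 and 1, 0 and 1, and 1 and 0 after scaling. The largest rises were Rilpl1, an effector of Rab8 and Rab10, at 0.93 ± 0.11, the Rab5 GEFs Rin2 at 0.89 ± 0.07 and Rin3 at 0.84 ± 0.07, and the GAP Tbc1d2b at 0.84 ± 0.11. Micall2 fell from 21.6 ± 1.06 to 4.73 ± 0.434 TPM at -1.98 ± 0.08, and the next falls were Tbc1d15 at -0.29 ± 0.07, Eea1 at -0.28 ± 0.04 and Rab3gap2 at -0.21 ± 0.04. The siRNA comparisons called 2 such genes, both with Ctbp2 siRNA: Rabggtb, a subunit of the Rab prenylation enzyme, in vehicle (-0.38 ± 0.07, limma adjusted p = 0.0239) and the GAP Tbc1d22a in LPS (-0.38 ± 0.08, limma adjusted p = 0.0276). After scaling the Tbc1d22a call was lost and 1 GEF was called higher with Ctbp2 siRNA in LPS.

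The 22 genes not reported were mostly near 0. Rab17, Rab39b, Rab3c and Rab9b are in the J774.1 table only and were listed at 0 in both groups. Of the rest, Rab19, a Golgi Rab, missed 1 TPM in 1 group only, J774.1 wildtype at 0.437 TPM, Rab6b missed it in 2 groups, Rab15 and Rab27a in 3 and Rab3a in 4. Just inside the threshold, Rab3d had its lowest group mean at 1.18 TPM and Rab4a at 1.55. With LPS in control siRNA BMDMs Rab19 went from 16.0 to 2.25 TPM (log2 fold change -2.41 ± 0.14), Rab3a from 5.44 to 0.690 (-1.94 ± 0.17) and Rab6b from 6.06 to 2.38 (-1.05 ± 0.14). Rab27a, which docks secretory lysosomes, fell with LPS at -0.86 ± 0.12 and rose in the double knockout from 2.59 to 4.24 TPM at 0.54 ± 0.12 (limma adjusted p = 0.00913).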

How the data were processed

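Polyadenylated RNA was sequenced from 24 mouse samples. The deposited values are TPM per gene and library, made with Salmon on mm39 per the file headers of the BMDM table; the build of the J774.1 table is not given in the sources used here. Per the submitters' processing notes, Salmon 1.9.0, FastQC, DESeq2 1.44.0 and R 4.4.1 were used. The log2 values of fold change and the p-values that the authors deposited, raw and adjusted, were copied for side-by-side counts, and the authors' mean signal (normalized counts averaged over samples) was not used further. The J774.1 table has 54661 lines because 190 identifiers repeat with equal values; 1 line of each was kept.

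Here limma 3.58.1 (R 4.3.3; lmFit, eBayes with trend and robust) was run on log2(TPM + 1) over genes averaging 1 TPM or more: 12146 genes in 18 BMDM libraries (1 coefficient per group) and 11818 in 6 J774.1 libraries. A call is an adjusted p under 0.05 (Benjamini-Hochberg, over all genes tested), in 10 comparisons. Fold changes are on that log2 scale and understate low genes. The labels name biological triplicates without saying whether cultures or animals were separate, so p-values measure the spread between these samples. Alternatives were median-of-ratios scaling, a pseudocount of 0.1, a floor of 10 TPM or none, no robust step, a replicate block, only the groups compared, and each library left out. The fits were checked on simulated data. Members and lists were chosen with earlier results of these data known. Members given in full were those called in any siRNA, interaction or knockout comparison, changed at least 2-fold with LPS in control cells, or among the 5 highest in BMDMs. Regulators were named as the 4 or fewer largest called changes in each direction with LPS and in the knockout, and every call in siRNA comparisons. Others were chosen after their values were seen, as were Vps39, Gdi2, Adgre1 and Appl2's pairing with Appl1. Promoter windows are from RefSeq (GRCm38.p6).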

Additional observations from a re-analysis of the deposited data

Results flagged for a closer look

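Rab20 with Ctbp2 siRNA had all 3 vehicle libraries below the control ones and all 3 LPS libraries above them. The difference between the 2 effects was 0.21 on the log2 scale (95% interval 0.01 to 0.41), and limma did not call it (adjusted p = 0.635).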

How the results depend on the processing

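Over 106 member results and 2491 alternative values, 2394 kept direction and side of the threshold, 86 lost the call and 11 reversed. The reversals all came from median-of-ratios scaling of LPS effects: Rab14 0.0660, Rab4b 0.0556 and Rab7 0.0475 in control, Rab11b 0.00057 and Rab7 0.0557 in Ctbp1 siRNA, and Rab11b 0.0783, Rab14 0.16, Rab34 0.0298, Rab4b 0.0248, Rab5c 0.0501 and Rab7 0.0763 in Ctbp2 siRNA cells; the cause was not tested. The count of 1 member for Ctbp1 siRNA in vehicle became 0 with scaling, no floor, trend only, the replicate block and only the groups compared, and 0 to 2 with 1 library left out, 2 without control LPS replicate 4. For Ctbp1 siRNA in LPS the 0 became 1 with a floor of 10 TPM, and 0 to 1 with 1 library left out (1 without Ctbp1 siRNA LPS replicate 1 or control LPS replicate 4). For Ctbp2 siRNA in LPS the 1 became 0 with no floor and with only the groups compared, and ran from 0 to 1 with 1 library left out. The LPS and knockout counts stayed within 1.5 times. With 1 library left out, 10 to 13 members rose and 18 to 21 fell with LPS in control cells. In the knockout 6 to 9 rose and 3 to 4 fell in that way, with 6 rising without wildtype replicate 1. Scaling took the counts with LPS in control cells outside these ranges, to 17 higher and 12 lower, and gave 7 and 4 in the knockout. Replicate numbers paired the samples weakly at most. Deviations of same-numbered BMDM libraries correlated at r = -0.06 to 0.15 (median 0.055, 6 of 45 pairs over 0.1). Those of differently numbered BMDM libraries correlated at -0.15 to 0.10 (median -0.020, 1 of 90 pairs over 0.1). In J774.1 cells the ranges were -0.00199 to 0.0569 for same-numbered and -0.0839 to 0.0376 for differently numbered libraries. The replicate block gave 13 higher and 19 lower members with LPS in control cells and 9 and 3 in the knockout. Depth is unknown from TPM, which limits what can be said of low members.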
